A study of Mus musculus with 19 samples.

Results

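The 10 genes described here are chemokines that intestinal epithelium can make: Cxcl1, Cxcl2, Cxcl5, Cxcl9, Cxcl10, Cxcl16, Ccl9, Ccl20, Ccl25 and Ccl28. They were taken by symbol, and all 10 were found among the 24062 genes of the bulk RNA sequencing table and among the 31053 genes of the single-cell matrix. Chemokines are small secreted proteins that attract leukocytes through receptors on those cells, and epithelial cells release them at barrier surfaces. Many are switched on by NF-kappaB or interferon signalling, while others are made at a steady level and guide lymphocytes to a particular stretch of gut.

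The adult libraries came from mouse colon epithelium of a mixed C57BL/6 and 129/Sv background, sorted on mCherry or GFP. Ascl2 KO cells (2 libraries, Ascl2Fl/Fl with Lgr5EGFP-Cre+, a Cre tied to the stem cell gene Lgr5) had 2 mg of tamoxifen on days 1 and 2 and 1 mg on day 3. Regenerating cells (2 libraries) and WT stem cells (3 libraries) both carried Ascl2(mCh) and Lgr5Dtr-Egfp+, in which Lgr5-positive cells make the receptor for diphtheria toxin. Regenerating cells came after toxin at 50 ug/kg every other day, 4 injections in all, which kills the Lgr5-positive stem cells. The hindgut libraries held Epcam+ cells from wild-type CD1 embryos with 2 libraries for each embryonic day (E11, E12, E14, then E16). A single droplet library held regenerating colon cells on day 8, mCherry+ and GFP-, from Ascl2(mCh); Lgr5Dtr-Egfp+ mice. Genotype, reporter allele, sorted colour and tamoxifen differed together between the KO libraries and the other adult libraries and cannot be told apart. The ages of the adult mice, and whether adult replicates came from separate animals, are not given in the sources used here, so p-values among adult libraries measure only the spread between these samples.

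Bulk libraries held 13826958 to 30583908 counts on genes. Among adult libraries the KO libraries stood apart, with 17926856 and 16553279 gene counts against at least 26013572 in the others, and with 59.8% and 62.0% of all reads on no gene against 46.3% to 47.8% in the others. The part of this in the KO differences was not tested. Ascl2, the deleted gene, was at 53.8 and 59.2 CPM (gene counts scaled to a common library size, on the TMM scale) in KO libraries, 85.7 and 57.0 CPM in regenerating libraries and 109.7, 151 and 104.2 CPM in WT libraries, so it was lower in KO than in WT cells but not at 0 (log2 fold change -1.11 ± 0.27 SE, adjusted p = 0.0115, edgeR). Epcam, an epithelial surface protein, was at 1886 to 3299 CPM over the adult libraries. Lgr5 was at 3.71 and 10.3 CPM in KO libraries, 1.79 and 7.18 CPM in regenerating libraries and 27.9 to 53.5 CPM in WT libraries. Levels of Xist, which female cells express, were 50.0 and 0.09 CPM in KO libraries, 0.03 CPM in both regenerating libraries and 0.29 to 28.5 CPM in WT libraries, and no fit had a term for sex.

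The sequences before the starts of Cxcl1, Cxcl2, Cxcl10 and Ccl20 are shown because these genes had the largest rises among the members in KO against WT cells. RefSeq promoter windows on GRCm38.p6, from 250 bases before to 50 bases after the start, were at hand for 8 of the 10 members; Cxcl5 and Cxcl16 are named only. In the windows below, capitals mark each match, on either strand and with overlaps joined, to the NF-kappaB consensus and, for Cxcl10, also to the core of the interferon-stimulated response element, a pattern bound by interferon regulatory factors.

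Cxcl1, chr5:90890995-90891294, plus strand: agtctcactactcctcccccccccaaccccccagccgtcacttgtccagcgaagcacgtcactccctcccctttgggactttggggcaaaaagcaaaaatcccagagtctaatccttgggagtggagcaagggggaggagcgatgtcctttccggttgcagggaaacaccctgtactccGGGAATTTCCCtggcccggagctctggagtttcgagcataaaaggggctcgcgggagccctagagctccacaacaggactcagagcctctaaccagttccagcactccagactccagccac

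Cxcl2, chr5:90903649-90903948, plus strand: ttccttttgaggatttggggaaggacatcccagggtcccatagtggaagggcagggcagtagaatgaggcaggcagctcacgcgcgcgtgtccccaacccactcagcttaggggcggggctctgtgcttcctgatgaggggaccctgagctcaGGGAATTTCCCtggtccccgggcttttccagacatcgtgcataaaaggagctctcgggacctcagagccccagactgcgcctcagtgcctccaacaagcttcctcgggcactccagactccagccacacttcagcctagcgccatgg

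Cxcl10, chr5:92348840-92349139, minus strand: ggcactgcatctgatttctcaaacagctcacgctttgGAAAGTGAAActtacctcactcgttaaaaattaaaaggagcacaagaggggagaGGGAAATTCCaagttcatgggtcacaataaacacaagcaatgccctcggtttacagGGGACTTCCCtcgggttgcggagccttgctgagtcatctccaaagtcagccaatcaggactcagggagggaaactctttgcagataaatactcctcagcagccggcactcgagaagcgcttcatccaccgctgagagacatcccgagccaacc

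Ccl20, chr1:83116516-83116815, plus strand: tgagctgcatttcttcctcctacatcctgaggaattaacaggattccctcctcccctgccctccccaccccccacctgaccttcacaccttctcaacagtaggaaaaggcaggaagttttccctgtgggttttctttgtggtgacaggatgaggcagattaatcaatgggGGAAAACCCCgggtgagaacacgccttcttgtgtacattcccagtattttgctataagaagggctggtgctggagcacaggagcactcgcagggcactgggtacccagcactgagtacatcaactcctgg

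The NF-kappaB consensus was found in the windows of 5 members, Cxcl1, Cxcl2, Cxcl10, Ccl20 and Ccl9, and in 4.51% of 32851 mouse promoter windows of the same length. Cxcl1 and Cxcl2 held the same 10 letters, GGGAATTTCC, at -61 and -87 bases from the start site to the end of the match, and this string was found in 0.0883% of all windows. Cxcl10 held 2 matches, and was the only member with the core of the interferon-stimulated response element, which was found in 3.44% of windows. A match describes letters and shows neither binding nor use. The genes of 5 members lie on chromosome 5, and the starts of Cxcl1 (chr5:90891245-90893121) and Cxcl2 (chr5:90903899-90905938) are 12654 bases apart.

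In Ascl2 KO cells, 7 of the 10 chemokines were higher than in WT stem cells and none was lower. Those that rose were the neutrophil attractants Cxcl1, Cxcl2 and Cxcl5, the interferon-induced Cxcl10, and Cxcl16, Ccl9 and Ccl20, by 5.10-fold to 121-fold. Cxcl9, Ccl25 and Ccl28 did not pass the test. Over all genes in this comparison, 36.2% of 13911 were called at an adjusted p below 0.05 (edgeR quasi-likelihood test, Benjamini-Hochberg adjustment, two-sided), and 18.8% were called higher. The 10 members had a median log2 fold change of 3.50, beside -0.02 over all genes tested. In bulk libraries, more cells of a type and more RNA per cell cannot be told apart.

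Cxcl1 and Cxcl2 encode the main mouse ligands of Cxcr2, the receptor that draws neutrophils out of blood. Cxcl1 was at 401 and 230.2 CPM in KO libraries, 30.2 and 19.7 CPM in regenerating libraries and 2.85, 16.01 and 6.34 CPM in WT libraries. Both KO libraries lay above all others, and the log2 fold change of KO over WT was 5.23 ± 0.64 (SE; adjusted p = 0.000364, edgeR), or 37.5-fold. Cxcl2 was at 159 and 169 CPM in KO libraries, 8.01 and 5.99 CPM in regenerating libraries and 0.91, 1.17 and 1.98 CPM in WT libraries. The 3 groups did not overlap for Cxcl2, and KO cells were 121-fold above WT cells (log2 fold change 6.92 ± 0.38 SE, adjusted p = 5.42e-05, edgeR). Cxcl1, Cxcl2 and the neighbouring Cxcl3 are related genes, and reads that align to several places are not in the gene counts. How many such reads came from these genes was not counted, so their levels may be too low. Cxcl5, the third Cxcr2 ligand among the members, was at 15.7 and 51.8 CPM in KO libraries, 17.4 and 2.55 CPM in regenerating libraries and 4.87, 0.99 and 0.75 CPM in WT libraries. Its regenerating libraries spanned the range from KO to WT. The KO difference of Cxcl5 was 3.93 ± 1.01 (log2, SE; adjusted p = 0.0151, edgeR) and rested on KO replicate 2, without which it was 2.82 (adjusted p = 0.119). It was 4.53 without KO replicate 1 and 5.26 without WT replicate 1. Without WT replicate 2, the library with the most Cxcl1 among the 3 WT libraries, the Cxcl1 difference was 6.10.

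Cxcl9 and Cxcl10 are ligands of Cxcr3, a receptor of activated T and natural killer cells. Cxcl10 was called in KO cells and Cxcl9 was not; the difference between the 2 genes was not tested. Cxcl10 was at 94.9 and 127 CPM in KO libraries, 7.27 and 13.6 CPM in regenerating libraries and 0.97, 5.29 and 5.81 CPM in WT libraries. KO cells were 27.6-fold above WT cells (log2 fold change 4.79 ± 0.65 SE, adjusted p = 0.000626, edgeR), and both regenerating libraries lay between the other groups. Cxcl9, which depends most on interferon gamma, was at 10.05 and 0.82 CPM in KO libraries, 3.23 and 10.2 CPM in regenerating libraries and 15.3, 0.44 and 3.02 CPM in WT libraries. The groups overlapped throughout, with more spread within a group than between groups (log2 fold change of KO over WT -0.20 ± 1.33 SE, adjusted p = 0.928, edgeR). Of 20 genes of the interferon gamma pathway, none rose in KO cells and 3 fell (15%), a share near the 17.4% of all genes that were lower, with a median log2 fold change of -0.65. Scaled by library size, 10 fell, where 6561 of 13911 genes were called, most of them lower, and the median of all genes was -1.001. The 3 were Ifngr1, a chain of the interferon gamma receptor (120 in KO against 234 CPM in WT, on average), Irf8, a transcription factor it induces (81.1 in KO against 186 CPM in WT), and Gbp7, a guanylate-binding protein (0.82 in KO against 16.3 CPM in WT).

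Ccl20 calls in cells with Ccr6, among them immature dendritic cells, B cells and Th17 cells. Ccl20 was at 108.6 and 232 CPM in KO libraries, 19.0 and 10.53 CPM in regenerating libraries and 12.8, 7.22 and 9.74 CPM in WT libraries. Only the KO libraries stood apart, and they were 17.2-fold above WT (log2 fold change 4.10 ± 0.42 SE, adjusted p = 0.000142, edgeR), or 3.45 on the log2 scale without KO replicate 2. Ccl9, a ligand of Ccr1 on myeloid cells, was at 84.4 and 63.2 CPM in KO libraries, 18.4 and 27.2 CPM in regenerating libraries and 19.1, 7.48 and 16.8 CPM in WT libraries. KO cells were 5.10-fold above WT (log2 fold change 2.35 ± 0.40 SE, adjusted p = 0.0021, edgeR), while 1 regenerating library fell within the WT range. Cxcl16 is unusual in being made as a membrane protein, with Cxcr6 as its receptor, and is released by the proteases Adam10 and Adam17. It was at 24.1 and 36.6 CPM in KO libraries, 5.77 and 6.89 CPM in regenerating libraries and 0.50, 8.85 and 1.41 CPM in WT libraries. The KO libraries were the highest, but the difference of 3.08 ± 0.95 (log2, SE; adjusted p = 0.0319, edgeR) was the least stable of the 7. It missed the threshold without KO replicate 1 (adjusted p = 0.0752), KO replicate 2 (0.131), WT replicate 3 (0.0837) or regenerating replicate 2 (0.0526), and it was 4.99 without WT replicate 2.

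The homeostatic chemokines gave values that overlapped or lay close. Ccl25, the ligand of Ccr9 and best known from small intestine and thymus, was at 15.8 and 9.35 CPM in KO libraries, 7.24 and 5.35 CPM in regenerating libraries and 6.63, 9.97 and 8.45 CPM in WT libraries. Ccl28, a ligand of Ccr10 that brings IgA plasma cells to the colon, was at 98.001 and 103.7 CPM in KO libraries, 77.9 and 39.9 CPM in regenerating libraries and 77.8, 51.6 and 79.9 CPM in WT libraries. Ccl25 overlapped between KO and WT, and Ccl28 did not, but neither passed the test in KO cells, with log2 fold changes of 0.59 ± 0.45 (SE, adjusted p = 0.348, edgeR) and 0.53 ± 0.31 (SE, adjusted p = 0.22, edgeR). Counting ranks alone, 8 of 10 members had both KO libraries above all 3 WT libraries, where 58% of genes tested did not overlap between the groups in either direction and 29.5% were higher in KO.

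**Figure D1:**
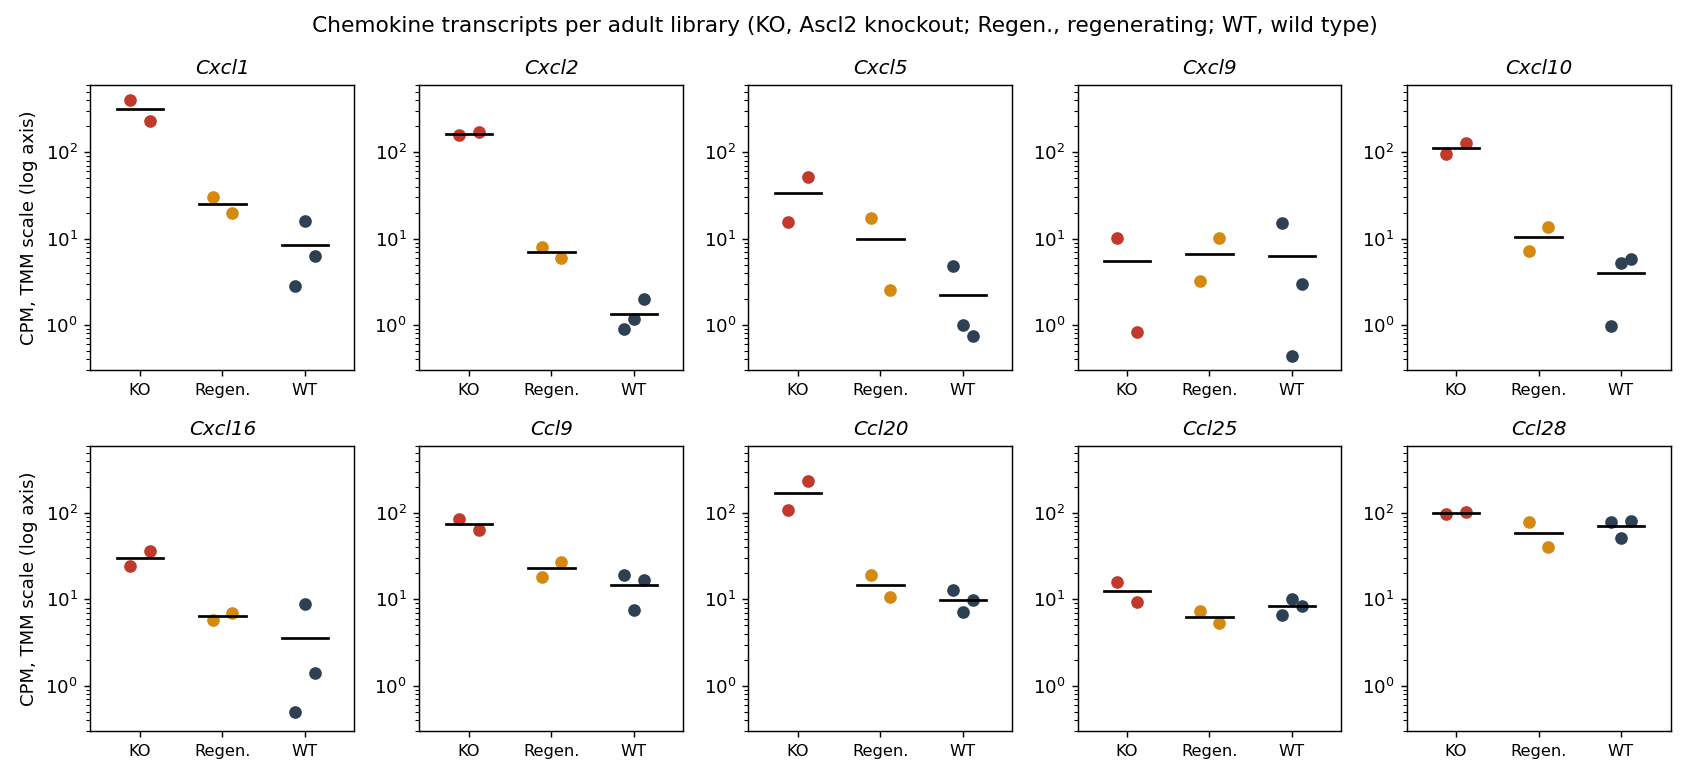
Level of each of the 10 chemokines in the 7 adult libraries, in CPM on a log axis, with 1 point per library, a bar at the mean, and Ascl2 KO, regenerating and WT libraries from left to right. The KO points of Cxcl1, Cxcl2, Cxcl10 and Ccl20 lie above all others, and those of Cxcl9 spread from 0.82 to 10.05 CPM within the WT range of 0.44 to 15.3 CPM.

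The scale on which libraries are compared bears on these folds. TMM factors were 0.616 and 0.660 in KO libraries and 1.21 to 1.32 in WT libraries. Scaled by library size alone, the median log2 fold change of all genes was -1.001 in KO against WT and -0.17 in regenerating against WT. In KO against WT, 18.8% of 6561 calls were then higher, where TMM gave 52.0% of 5039. On that scale Cxcl1, Cxcl2, Cxcl10, Ccl9 and Ccl20 still rose, by 4.21, 5.95, 3.81, 1.37 and 3.14 on the log2 scale. Cxcl5 rose by 2.98, Cxcl16 missed the threshold at 2.06 (adjusted p = 0.114), and Ccl25 and Ccl28 turned to -0.41 and -0.44 without passing the test.

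Against regenerating cells, KO cells had higher Cxcl1, Cxcl2, Cxcl10, Ccl9 and Ccl20, 5 of the 10 members, by 3.24-fold to 23.4-fold, where 31.4% of 13911 genes were called and 15.4% were higher. This comparison shares its KO libraries with the one against WT cells. Cxcl2 differed by 4.55 ± 0.40 (log2, SE; adjusted p = 0.000205, edgeR), Ccl20 by 3.53 ± 0.48 (adjusted p = 0.00082) and Cxcl1 by 3.66 ± 0.71 (adjusted p = 0.00457). Cxcl10 differed by 3.41 ± 0.72 (adjusted p = 0.00709), but by 3.01 without regenerating replicate 1 (adjusted p = 0.0569). Ccl9 differed by 1.70 ± 0.45 (adjusted p = 0.0201) and did not pass without either regenerating library (0.137 and 0.0658) or without KO replicate 1 (0.11). The difference of Ccl20 was 2.87 without KO replicate 2. Cxcl5 and Cxcl16 were at 1.76 ± 1.08 (adjusted p = 0.259) and 2.26 ± 1.06 (adjusted p = 0.143). Scaled by library size, the median log2 fold change of all genes was -0.84 and 19.5% of 5478 calls were higher, against 49.0% with TMM, and Ccl9 missed the threshold (0.89, adjusted p = 0.144).

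Regenerating cells differed from WT stem cells in 1 member, Cxcl2, where 0.331% of 13911 genes were called. The mean was 7.003 ± 1.43 CPM in regenerating cells and 1.35 ± 0.56 CPM in WT cells (SD, n = 2 and 3), a 5.18-fold difference (log2 fold change 2.37 ± 0.33 SE, adjusted p = 0.0234, edgeR). This call was lost without regenerating replicate 1 (adjusted p = 0.109) or 2 (0.162), KO replicate 1 (0.074) or 2 (0.0838), or WT replicate 1 (0.11) or 2 (0.0575), and with library size scaling (0.0551). A fit of the 5 libraries alone gave an adjusted p of 0.283. Cxcl1 averaged 24.98 ± 7.44 CPM in regenerating cells and 8.40 ± 6.82 CPM in WT cells, with no overlap (log2 fold change 1.57 ± 0.58 SE, adjusted p = 0.362, edgeR). Cxcl10 averaged 10.4 ± 4.47 CPM in regenerating cells and 4.02 ± 2.66 CPM in WT cells (1.37 ± 0.60 on the log2 scale, SE, adjusted p = 0.471). Those 3 were the only members whose groups did not overlap, where 28.9% of genes did not. Ccl28 averaged 58.9 ± 26.8 CPM in regenerating cells and 69.8 ± 15.8 CPM in WT cells, and Ccl25 averaged 6.29 ± 1.34 CPM in regenerating cells and 8.35 ± 1.67 CPM in WT cells. Both differences were within the spread between replicates, as was that of Ccl20, which averaged 14.8 ± 5.98 CPM in regenerating cells and 9.92 ± 2.79 CPM in WT cells (adjusted p = 0.750, edgeR).

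**Figure D2:**
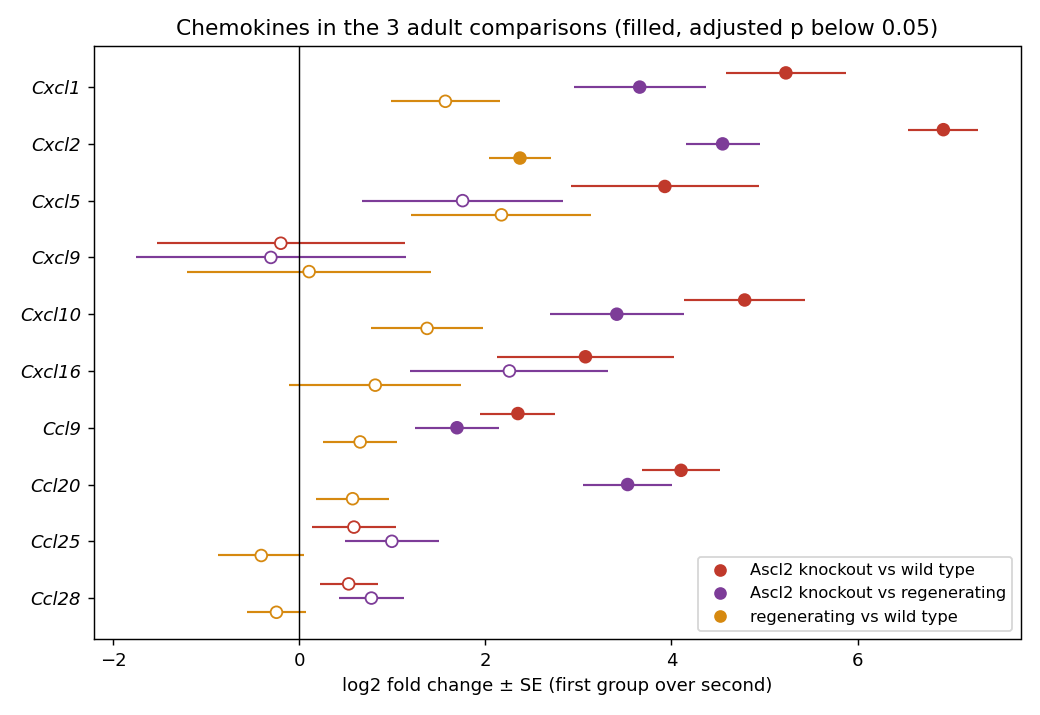
Log2 fold changes of the 10 chemokines with their standard errors for Ascl2 KO over WT, Ascl2 KO over regenerating and regenerating over WT, with filled symbols for an adjusted p below 0.05. Filled symbols number 7, 5 and 1 of 10 in that order, and the values of Cxcl9 lie near 0 with the widest errors.

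Across the 7 adult libraries, the levels of Cxcl1 and Cxcl2 moved together with a Pearson r of 0.96, as did those of Cxcl1 and Cxcl10 (0.96), while Cxcl9 and Cxcl1 gave -0.18. These are descriptions over libraries that share their groups. The genes whose levels followed that of Cxcl1 most closely among 8505 genes were Hist1h4d, a histone gene (r = 0.991), Suco (0.988) and Yif1b (0.988).

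Of 18 other chemokine genes tested, 10 were higher in KO than in WT cells and none was lower, where 18.8% of all genes were higher. Their median log2 fold change was 3.31, also with the 4 genes at 0 in WT set to their lower bounds. Scaled by library size, 7 were higher and Cx3cl1 was lower, where 6561 of 13911 genes were called, most of them lower. Cxcl3, another Cxcr2 ligand, was at 8.24 and 12.8 CPM in KO libraries and at 0 in all WT libraries (adjusted p = 0.00186, edgeR). Ccl7, a monocyte attractant, averaged 139 ± 39.8 CPM in KO cells and 0.68 ± 0.51 CPM in WT cells (log2 fold change 7.67, adjusted p = 6.12e-05, edgeR), and Ccl2, which attracts monocytes through Ccr2, was at 25.6 and 7.24 CPM in KO libraries and 0, 0 and 0.16 CPM in WT libraries. Of 8 receptor genes tested, 1 was higher (12.5%, below the 18.8% of all genes). This was Ccr2, at an average of 2.91 CPM in KO cells and 0 in WT cells. Ccl6, a relative of Ccl9, was at 2084 and 3927 CPM in KO libraries, 4966 and 5732 CPM in regenerating libraries and 398, 203 and 564 CPM in WT libraries. It was the only 1 of the 18 called in regenerating against WT cells (log2 fold change 3.78, adjusted p = 0.0177, edgeR), where 0.331% of all genes were called. Markers of deep crypt secretory cells, a Reg4-positive type of the colon crypt base, summed to 31164 to 42375 CPM in KO libraries, 42457 to 46495 CPM in regenerating libraries and 2773 to 6317 CPM in WT libraries, with 3 of 6 higher in regenerating than in WT cells. Their part in the Ccl6 difference was not tested.

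Of 28 genes of the NF-kappaB and interleukin 17 pathways, 3 were higher and 8 lower in KO than in WT cells (10.7% and 28.6%), beside 18.8% and 17.4% of all genes tested, with a median log2 fold change of -0.59. Nfkbia, the inhibitor that NF-kappaB itself induces, averaged 2787 ± 267 CPM in KO cells and 317 ± 60.1 CPM in WT cells (log2 fold change 3.14, adjusted p = 5.92e-05, edgeR). Nfkb1, an NF-kappaB subunit, averaged 34.9 CPM in KO cells and 15.7 CPM in WT cells, and the inhibitor Nfkbib averaged 176 CPM in KO cells and 83.3 CPM in WT cells. The genes that fell were Ikbkb, a kinase that marks the inhibitors for breakdown (12.96 in KO against 41.998 CPM in WT), Tnfrsf1a, a receptor of tumour necrosis factor (24.4 in KO against 60.4 CPM in WT), Il17rc, a chain of the interleukin 17 receptor (60.6 in KO against 145 CPM in WT), the adaptors Myd88 and Traf3ip2, the kinase Chuk, and Nfkb2 and Relb, which are NF-kappaB subunits. Scaled by library size, Nfkbia alone was called higher and 15 of the 28 were lower. On that scale 6561 of 13911 genes were called, most of them lower, and the median log2 fold change of all genes was -1.001. Counts of lower genes on that scale are therefore not set against the shares above. None of the 28 was called between regenerating and WT cells, where 0.331% of all genes were. Of 7 genes that process or hold chemokines, 2 were lower in KO than in WT cells: Sdc1, a heparan sulfate proteoglycan that binds them (70.6 in KO against 331 CPM in WT), and Adam17 (12.1 in KO against 28.6 CPM in WT), with 5 lower when scaled by library size.

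Markers of neutrophils, of stroma and of some epithelial types moved with the KO group. Of all genes tested, 18.8% were called higher and 17.4% lower in KO than in WT cells. The 8 neutrophil markers in the table summed to 549 to 945 CPM in KO libraries, 1.08 to 1.16 CPM in regenerating libraries and 0 to 1.04 CPM in WT libraries. S100a8, an abundant neutrophil protein, was at 375 and 244 CPM in KO libraries and at 0, 0 and 0.03 CPM in WT libraries, and Ngp, a granule protein of immature neutrophils, was at 206 and 99.0 CPM in KO libraries and 0 in every WT library. Of 6 neutrophil markers tested, 5 were higher in KO cells, and Mmp9 was at 0 in 1 KO library. Macrophage markers (9 in the table) summed to 386 to 678 CPM in KO libraries, 144 to 293 CPM in regenerating libraries and 128 to 358 CPM in WT libraries, most of it Cd14. Of these 9, 2 were higher in KO than in WT cells (22.2%), a share near that of all genes. Cd14 was not particular to macrophages in this series. In the day 8 cells described below it was at 115 CPM, while 5 of 10 macrophage markers had no UMI. Of those cells, 99.6% held at least 3 epithelial markers, so the macrophage sum need not follow macrophages. Stromal markers summed to 117.3 to 209.6 CPM in KO libraries, 9.39 to 9.44 CPM in regenerating libraries and 2.75 to 5.69 CPM in WT libraries, with 5 of 7 higher in KO than in WT cells. Pan-leukocyte markers such as Ptprc summed to 51.5 to 71.8 CPM in KO libraries, 23.0 to 30.8 CPM in regenerating libraries and 27.0 to 47.1 CPM in WT libraries. Of the 7 tested, 1 was higher and 1 lower in KO than in WT cells. None of the 7 T cell markers and 3 B and plasma cell markers tested was called. Among epithelial types, enteroendocrine markers summed to 1841 to 2505 CPM in KO libraries, 37.1 to 69.4 CPM in regenerating libraries and 80.1 to 199.6 CPM in WT libraries, with 3 of 8 higher in KO than in WT cells. Goblet markers summed to 12112 to 16426 CPM in KO libraries, 3183 to 8087 CPM in regenerating libraries and 933 to 3933 CPM in WT libraries (2 higher and 1 lower of 8 in KO against WT), and 4 of 6 deep crypt secretory markers were higher and 1 lower. Stem cell markers summed to 503 to 549 CPM in KO libraries, 1175 to 1185 CPM in regenerating libraries and 1524 to 1760 CPM in WT libraries, with 9 of 10 lower in KO than in WT cells. Tuft cell markers summed to 8.97 to 8.98 CPM in KO libraries, 3.62 to 6.89 CPM in regenerating libraries and 61.5 to 98.9 CPM in WT libraries, with 5 of 7 lower in KO. The part of these markers in the chemokine differences was not tested.

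**Figure D3:**
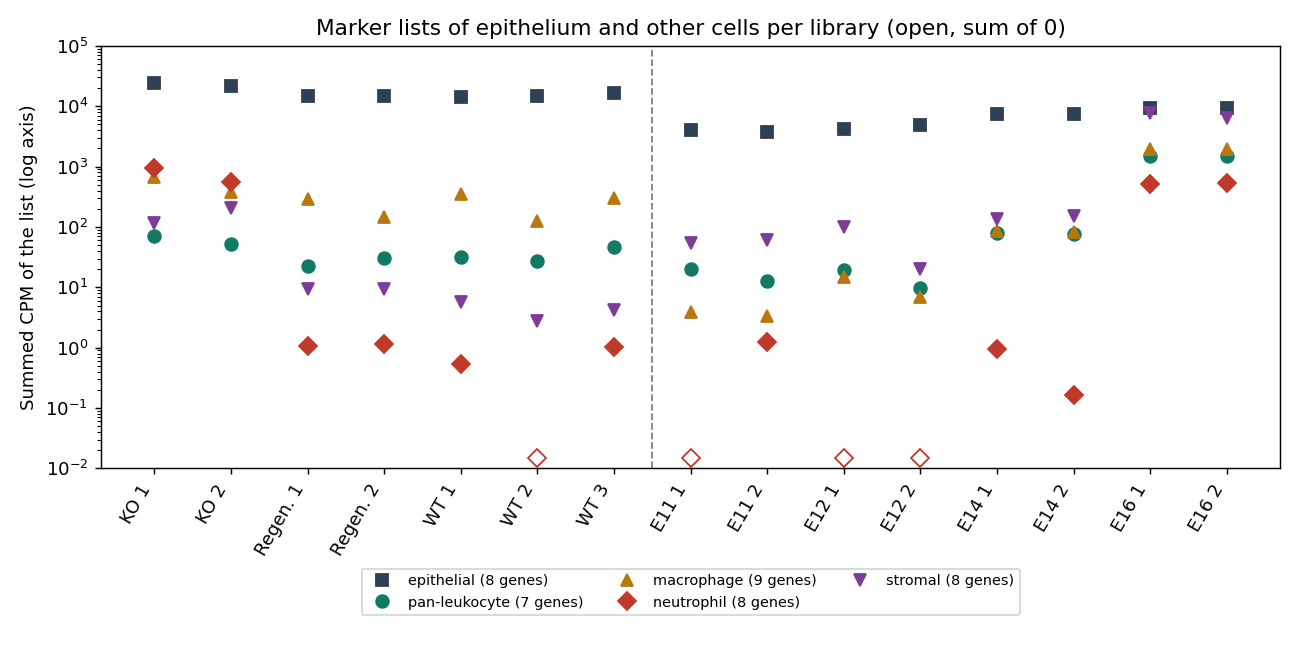
Summed levels of marker lists for other cell types and for epithelium in each bulk library, in CPM on a log axis, with 1 point per library. The neutrophil sums are 549 to 945 CPM in the Ascl2 KO libraries and at most 1.16 CPM in the other adult libraries, and the E16 libraries stand above the younger hindgut for each non-epithelial list plotted.

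In the embryonic hindgut, Cxcl1, Cxcl2, Cxcl10 and Ccl9 were at or below 1.70 CPM up to E14 and at 24.0 to 216 CPM at E16. Cxcl16 and Ccl25 were present at every age, and Cxcl5, Cxcl9, Ccl20 and Ccl28 were at or below 2.59 CPM at every age. Between E11 and E16, 8 of the 9 members tested were higher at E16 and none was lower, where 55.7% of 16481 genes were called and 29.6% were higher. Cxcl9 had no count in any of the 8 libraries, and Cxcl5 did not pass. The members' median log2 fold change was 8.47, or 5.21 with the 5 members at 0 in E11 set to their lower bounds, beside 0.05 over all genes. Those 5 members passed the filter on low counts through later ages and could not have been called lower. The count of 8 of 9 and these medians are therefore descriptions only.

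Cxcl2 was at 0 in both E11 libraries, 0.15 and 0 CPM at E12, 1.65 and 1.70 CPM at E14 and 187 and 216 CPM at E16. It was at least 3828-fold higher at E16 than at E11, against a floor of 3 counts over the E11 group (adjusted p = 7.61e-06, edgeR), and 120-fold higher at E16 than at E14 (log2 fold change 6.90 ± 0.34 SE, adjusted p = 4.49e-05, edgeR). Its step between E12 and E14 was 22.02-fold (4.46 ± 0.59 on the log2 scale, adjusted p = 0.00281, edgeR), and 8.29 or 3.48 on the log2 scale without E12 replicate 1 or 2. Cxcl1 was at 0 in both E11 libraries, 0.29 and 0.07 CPM at E12, 0.44 and 0.29 CPM at E14 and 50.1 and 48.2 CPM at E16. Nearly its whole increase lay in the last step, where E16 was 134-fold above E14 (log2 fold change 7.06 ± 0.57 SE, adjusted p = 0.000251, edgeR), and E16 was at least 942-fold above E11 (adjusted p = 4.61e-05, edgeR). Cxcl5, also a ligand of Cxcr2, stayed low at 0.90 and 1.01 CPM at E11, 0.62 and 0 CPM at E12, 0.30 and 0.08 CPM at E14 and 0.86 and 1.35 CPM at E16 (E16 over E11, log2 fold change 0.21 ± 1.499 SE, adjusted p = 0.917, edgeR).

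Cxcl10 had no count at E11 or E12 and was at 0.96 and 0.75 CPM at E14 and 24.0 and 26.5 CPM at E16. It was at least 15.9-fold higher at E14 than at E12 (adjusted p = 0.0035, edgeR) and 29.5-fold higher at E16 than at E14 (log2 fold change 4.88 ± 0.51 SE, adjusted p = 0.00122, edgeR). Its relative Cxcl9 was at 0 throughout. Ccl9 was at 0.38 and 0.03 CPM at E11, 0 and 0.31 CPM at E12, 1.35 and 0.91 CPM at E14 and 138 and 151 CPM at E16. It was 728-fold higher at E16 than at E11 (log2 fold change 9.51 ± 0.74 SE, adjusted p = 4.1e-05, edgeR), which became 11.90 or 8.56 without E11 replicate 1 or 2, whose counts were few. Its step between E12 and E14 (2.78 ± 0.88 on the log2 scale, adjusted p = 0.0492, edgeR) did not hold in 8 of 14 alternatives, among them leaving out E12 replicate 1 (1.83), and was 7.71 without E12 replicate 2.

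Cxcl16 was present at every age, at 1.47 and 3.41 CPM at E11, 3.05 and 1.71 CPM at E12, 6.66 and 5.56 CPM at E14 and 29.7 and 28.5 CPM at E16. E16 was 11.9-fold above E11 (log2 fold change 3.57 ± 0.51 SE, adjusted p = 0.000728, edgeR), or 4.30 on the log2 scale without E11 replicate 2. E16 was 4.76-fold above E14 (adjusted p = 0.00832, edgeR), a call lost without either E14 library (adjusted p = 0.0521 and 0.0676). Ccl25 was the only member called lower at any step. It was at 5.15 and 5.88 CPM at E11, 4.46 and 5.09 CPM at E12, 2.22 and 2.32 CPM at E14 and 22.6 and 32.9 CPM at E16. E14 libraries were below all E12 libraries, by a log2 fold change of -1.07 ± 0.33 (SE, adjusted p = 0.0472, edgeR) that missed the threshold in 10 of 14 alternatives (adjusted p = 0.0523 to 0.217). E16 was 12.2-fold above E14 (3.61 ± 0.36 on the log2 scale, adjusted p = 0.000315, edgeR) and 5.02-fold above E11 (2.33 ± 0.34, adjusted p = 0.000782, edgeR).

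Ccl20 and Ccl28 stayed low to E16. Ccl20 was at 0 in both E11 libraries, 0.44 and 0.17 CPM at E12, 0.70 and 0.71 CPM at E14 and 0.80 and 1.43 CPM at E16. It was at least 20.7-fold higher at E16 than at E11 (adjusted p = 0.00632, edgeR), with no call at any step between neighbouring ages. Ccl28 was at 0 in both E11 libraries, 0.94 and 0.03 CPM at E12, 0.04 CPM in both E14 libraries and 2.59 and 1.13 CPM at E16. It was at least 37.0-fold higher at E16 than at E11 (adjusted p = 0.0164, edgeR), a call lost without E11 replicate 2 (0.0506) or E16 replicate 1 (0.0896). Between E14 and E16 its ratio was 45.5 with a 95% counting interval of 12.02 to 384, from 57 counts at E16 and 2 at E14 (adjusted p = 0.0548, edgeR).

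By step, none of the 9 members was called between E11 and E12, where 2.63% of genes were called by edgeR. At an unadjusted p below 0.05 there were 3 members, but the share of all genes at that threshold was not counted, so nothing follows from that number. DESeq2 called 3 members, where it called 2431 of 16481 genes. Between E12 and E14, Cxcl2, Cxcl10 and Ccl9 were higher and Ccl25 lower at E14, where 28.3% of genes were called. Between E14 and E16, 6 of 9 were higher at E16 and none lower, where 39.6% were called and 20.6% were higher. The genes whose levels followed Cxcl2 most closely over the 8 hindgut libraries were Srpr (Pearson r = 0.998), Klf6 (0.998) and Akr1c13 (0.997), a description that rests on the 2 libraries at E16.

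**Figure D4:**
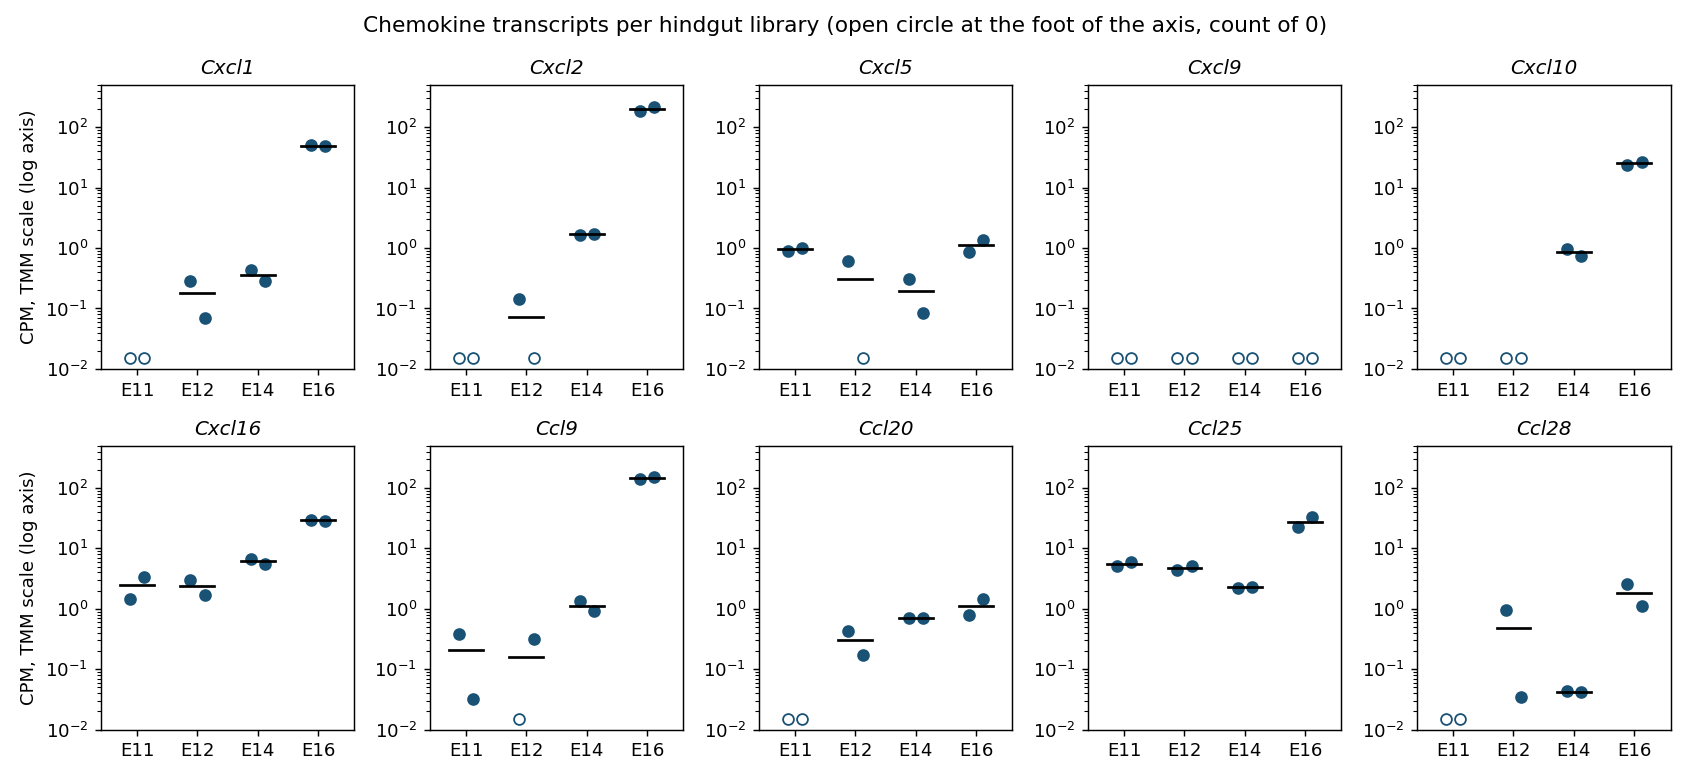
Level of each of the 10 chemokines in the 8 hindgut libraries by embryonic day, in CPM on a log axis, with 1 point per library, a bar at the mean and open circles at the foot of the axis for a count of 0. Cxcl1, Cxcl2, Cxcl10 and Ccl9 stay at or below 1.70 CPM up to E14 and reach 24.0 to 216 CPM at E16, and Cxcl9 is at 0 throughout.

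Of 18 other chemokines tested, 14 were higher and 2 lower at E16 than at E11. Of 19 receptor genes, 14 were higher and none lower. Over all genes, 55.7% were called and 29.6% were higher. In each of these 2 lists, 10 genes were at 0 in E11 and could not have been called lower. Ccl4 (80.0 ± 5.41 CPM, SD, n = 2), Ccl3 (79.3 ± 6.41 CPM) and Ccl2 (57.1 ± 5.21 CPM) at E16 had no count at E11. The same held for the receptors Ccr2 (105 ± 7.39 CPM), Cx3cr1 (81.1 CPM) and Ccr1 (67.5 CPM), which macrophages and monocytes carry. Cxcr2 was at 4.50 and 9.03 CPM and Ccr6 at 7.09 and 5.79 CPM at E16. Cxcl15, an epithelial chemokine, was lower, at 0.44 CPM at E16 and 29.6 CPM at E11 (log2 fold change -5.98, adjusted p = 0.000286, edgeR). Nephric duct markers also fell with age, summing to 828 to 1037 CPM at E11, 122 to 125 CPM at E12, 38.0 to 39.5 CPM at E14 and 23.0 to 25.7 CPM at E16, with 6 of 6 lower at E16 than at E11, and their part in this difference was not tested. Of 28 NF-kappaB and interleukin 17 genes, 23 were higher and none lower, with a median of 3.09 on the log2 scale. Zfp36, which destabilises cytokine messages and is itself induced with them, averaged 2048 ± 92.5 CPM at E16 and 25.7 ± 13.2 CPM at E11 (log2 fold change 6.32, adjusted p = 1.14e-05, edgeR). Of 18 interferon gamma genes, 16 were higher at E16 and none lower, with a median of 3.07.

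Markers of leukocytes and stroma were also higher at E16 in the Epcam+ sort. Of 16481 genes tested, 55.7% were called between E11 and E16, and 29.6% were called higher at E16. Macrophage markers summed to 3.34 to 3.83 CPM at E11, 6.80 to 14.8 CPM at E12, 83.5 to 84.4 CPM at E14 and 1941 to 1988 CPM at E16, and all 9 tested were higher at E16 than at E11. Neutrophil markers summed to 0 to 1.27 CPM at E11, 0 at E12, 0.17 to 0.96 CPM at E14 and 517 to 545 CPM at E16, with 8 of 8 higher at E16. Pan-leukocyte markers summed to at most 81.0 CPM up to E14 and to 1510 to 1520 CPM at E16, and stromal markers to at most 152 CPM up to E14 and 6485 to 7858 CPM at E16. Epithelial markers summed to 9302 to 9438 CPM at E16 and 3734 to 4061 CPM at E11. Markers of epithelial types moved as well. Goblet markers summed to 15.6 to 18.1 CPM at E11 and 5430 to 5494 CPM at E16, with 8 of 8 higher at E16. Higher too were 6 of 6 deep crypt secretory, 8 of 8 enteroendocrine and 7 of 10 colonocyte markers (2 lower). Cycling markers fell, with 8 of 10 lower. The E16 levels of all 8 members that were called thus stand beside changed markers of other cells and of epithelial types. The part of either in the result was not tested.

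On day 8 of regeneration, single cells gave UMI counts for all 10 members. After filters, 3356 cells were kept, with a median of 20837 UMIs, and 99.6% of them held at least 3 epithelial markers. As 1 library has no replicate, intervals below cover counting error only, at 95%, and no test was made. UMI counts at the 3' end do not scale with gene length, so that members can be set beside each other here. Ccl28 had 3737 UMIs, or 45.9 CPM (44.5 to 47.4), and was found in 54.9% of cells. Cxcl1 came next with 1280 UMIs (15.7 CPM, 16.6% of cells), then Ccl25 with 915 (11.2 CPM, 21.6% of cells). Cxcl10, Ccl20, Cxcl2 and Cxcl5 followed at 9.49, 8.78, 8.62 and 8.01 CPM, and Cxcl16, Ccl9 and Cxcl9 were at 2.13, 2.03 and 1.78 CPM.

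These levels were set beside free RNA, since 71722 droplets of 10 to 100 UMIs, taken to hold no cell, carried the members too. Those droplets held 4448440 UMIs in all, while the median cell held 20837. CPM therefore compares the make-up of their RNA and not its amount. Ccl28 was at 40.9 CPM in those droplets, Cxcl1 at 22.5 CPM and Ccl25 at 6.74 CPM. The ratio of cells to free RNA ran from 0.70 for Cxcl1 to 1.67 for Ccl25. Outside the members, it was 1.76 for Epcam, 1.13 for Ascl2 and 1.03 for Ccl6. Among the members, only Ccl25 lay above the counting interval of its free RNA level, Cxcl1 lay below its interval, and the other 8 lay within theirs. How much free RNA the cells held was not tested. The 16 cells with at least 3 pan-leukocyte markers held 0 UMIs of 7 members and 1 UMI each of Cxcl10, Ccl25 and Ccl28, but with 55509 UMIs in all (median 2229.5 per cell) these counts are too few to show absence. They held 1025 of the 1037 UMIs of Ccl5, a lymphocyte chemokine, and 73 of the 76 UMIs of Ptprc. In this library, 5 of 10 macrophage markers had no UMI, among them Csf1r, Adgre1 and C1qa.

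The members differed in how their UMIs were spread over cells. The 10 cells with the most UMIs held 2.76% of those of Ccl28 and 4.37% of those of Ccl25. The same number of cells held 74.5% of Cxcl9 UMIs, 32.6% of Cxcl10, 27.0% of Cxcl5 and 24.8% of Ccl20, with up to 60 UMIs of Cxcl10 and 54 of Ccl20 in a cell. Of the 309 cells with Cxcl5, 196 held exactly 1 UMI. Of all cells, 27.0% had no UMI of any member, 35.8% had UMIs of 1 member, and 1 cell had UMIs of 8. Of 254 cells with Cxcl2, 125 also had Cxcl1 (49.2%, which is 22.4% of the 558 cells with Cxcl1). Of 35 cells with Cxcl9, 11 had Cxcl10 (31.4%, which is 7.01% of the 157 cells with Cxcl10).

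Cells were clustered without the chemokine genes, and clusters were compared by number, with their leading genes. Cluster 5 (203 cells, Fabp6 and Gsdmc4) and cluster 8 (61 cells, Saa1 and Aqp8, colonocyte-like) had the most Ccl28, at 86.0 CPM (79.4 to 93.1) and 88.0 CPM (73.1 to 105). Cluster 6 (752 cells, Cma1, Reg4 and Spink4, deep crypt secretory-like) had the least of the 9 clusters, at 22.8 CPM (19.9 to 26.1). The share of cells with Ccl28 was 88.7% in cluster 5 and 23.8% in cluster 6, or 14.8% and 4.79% when each cell was thinned to the same number of UMIs, as cluster 5 cells were deeper (median 31937 UMIs, against 12429 in cluster 6). The Cxcr2 ligands were also low in cluster 6, with Cxcl1 at 7.85 CPM, Cxcl2 at 2.12 CPM and Cxcl5 at 0.64 CPM (0.23 to 1.39). In the cycling-like cluster 3 (614 cells, Top2a and Hist1h1b) the same ligands were at 21.4 CPM for Cxcl1, 10.1 CPM for Cxcl2 and 15.2 CPM (13.5 to 17.1) for Cxcl5. Cluster 1 (912 cells, Fut9 and Cdca7), which held the 16 leukocyte-marked cells, had 20.7 CPM of Cxcl1 and 14.2 CPM of Cxcl10.

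Ccl20 was highest in cluster 5, at 19.3 CPM (16.3 to 22.9), of which 1 cell gave 54 UMIs, and was at 12.3 CPM in cluster 1 and 4.99 CPM in cluster 6. Ccl9 followed another pattern, with 4.55 CPM in cluster 4 (595 cells, Guca2b and Hepacam2), 3.61 CPM in cluster 6 and 0.67 CPM in cluster 1, so the cluster with little Cxcl2 was among those with more Ccl9. Cxcl10 was at 45.7 CPM in the 24 enteroendocrine-like cells of cluster 2, but all 26 UMIs came from 3 cells, and 19 of them from 1. Ccl25 differed least among the large clusters, from 5.94 CPM in cluster 6 to 13.5 CPM in cluster 3. UMIs of the receptors were few, with 3 of Cxcr2, 3 of Ccr6, 14 of Ccr9 and 5 of Ccr10 in all cells.

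**Figure D5:**
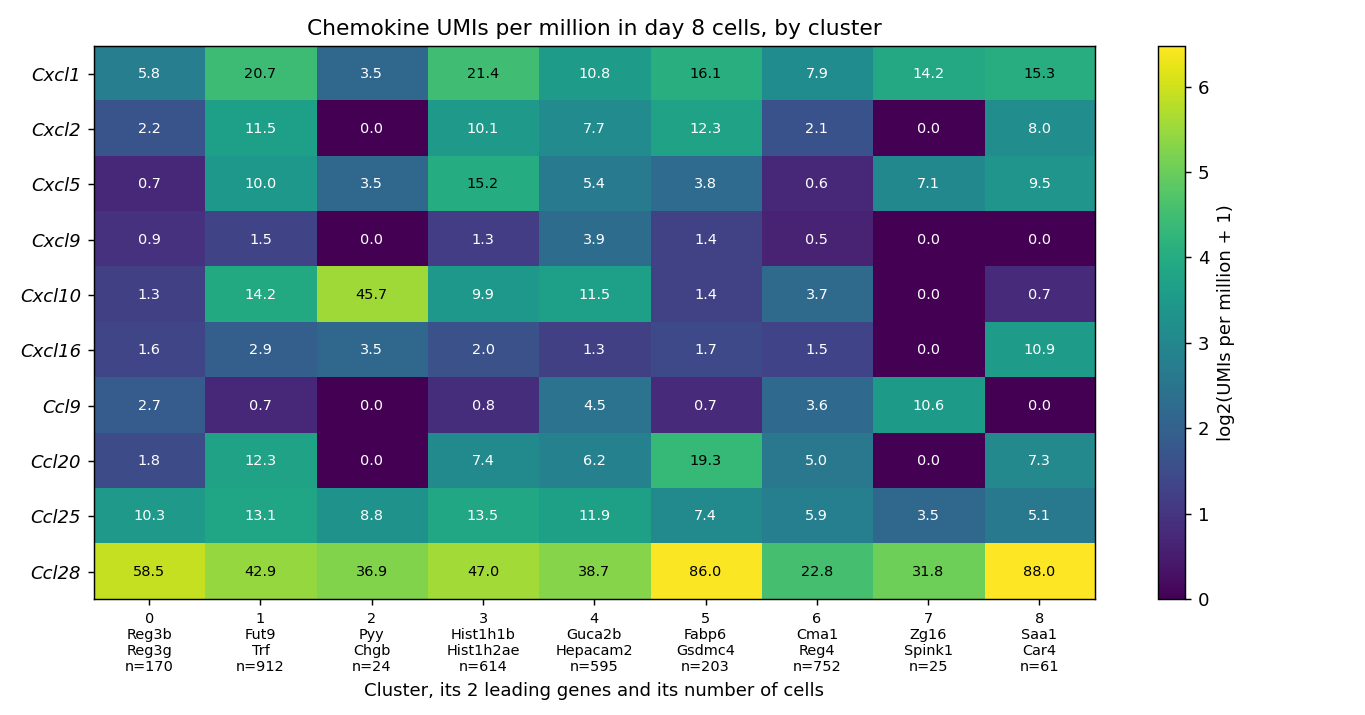
Heat map of each chemokine (rows) in the day 8 cell clusters (columns, with 2 leading genes and the number of cells), coloured by log2 of the CPM of summed UMIs plus 1 and printed as CPM. Ccl28 is at 86.0 and 88.0 CPM in clusters 5 and 8 and 22.8 CPM in cluster 6, and Cxcl5 is at 15.2 CPM in cluster 3 and 0.64 CPM in cluster 6.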

How the data were processed

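The authors deposited raw read counts per gene symbol for 15 bulk libraries, made with STAR 2.5.3a and HTSeq per the submitters' processing notes, which name GRCm38 and mm10. Annotation release and strand setting are not given in the sources used here. Another 5 entries that name no gene, among them reads aligned to several places, held 42.9% to 62.0% of all reads and were left out. Single-cell values are deposited UMI counts for each droplet (Cell Ranger 3.0.2, per the file headers). The 3 ChIP-seq libraries were not analysed here.

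Low counts were filtered with filterByExpr, TMM set the scale of each library, and edgeR 4.0.16 (R 4.3.3) gave quasi-likelihood tests, two-sided, Benjamini-Hochberg adjusted, threshold 0.05. The 7 adult and 8 hindgut libraries had a fit each, with group as the term. Folds against groups at 0 are lower bounds at 3 counts over the group. Single cells (at least 2000 UMIs) were clustered with scanpy 1.11.5 without 46 chemokine genes. The doublet caller marked 0.0596% of cells, so it removed almost none. Clusters were named "X-like" from marker lists and are not the study's own. DESeq2 1.42.0, other scalings, no filter, a replicate block, fits of 2 groups, and each library left out were tried as alternatives. Scripts were tested on simulated data.

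The members and lists were chosen with earlier results of these data known. Pathway genes named outside the 10 were the largest called changes of their list with a mean of at least 10 CPM in 1 of the groups, or are counts' few exceptions chosen after their values were seen.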

Additional observations from a re-analysis of the deposited data

How the results depend on the processing

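Of 31 calls of members over the 7 comparisons, 22 held under every alternative tried and 9 were lost under at least 1. Regenerating against WT had 46 called genes with edgeR, 372 with DESeq2, 225 with no filter on low counts and 6 in a fit of the 2 groups alone, with 1, 1, 1 and 0 members, and 0 members with library size scaling. Between E12 and E11, 434 genes were called with edgeR, 2431 and 3 members with DESeq2, 266 with a replicate block and 54 in a fit of the 2 groups; between E14 and E12, 2 members were called under the block and in the fit of the 2 groups. The cause was not tested.

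Leaving out each library in turn, the called genes ranged from 1 to 39 (members 0 to 1) for regenerating against WT, 3413 to 4577 (5 to 7) for KO against WT, 2446 to 4668 (4 to 6) for KO against regenerating, 6385 to 9209 (7 to 8) for E16 against E11, 119 to 919 (0) for E12 against E11, 1717 to 5846 (2 to 5) for E14 against E12 and 3468 to 7888 (5 to 7) for E16 against E14.

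Signs that turned belonged to differences that were not called. With library size scaling, Cxcl9 was at -0.0637 in regenerating against WT, Ccl25 and Ccl28 at -0.41 and -0.44 in KO against WT and Ccl28 at -0.0222 in KO against regenerating. Leaving out each library in turn, Cxcl9 ranged from -0.99 to 1.96 in regenerating against WT, -2.93 to 1.66 in KO against WT and -3.04 to 0.70 in KO against regenerating, and Ccl28 from -0.80 to 0.12 in regenerating against WT. In the hindgut, Cxcl5 ranged from -0.14 to 0.53 for E16 against E11 and from -1.79 to 5.21 for E14 against E12. For E12 against E11, Ccl9 ranged from -5.20 to 2.12 and Cxcl16 from -0.53 to 0.69, and for E14 against E12, Ccl28 ranged from -4.31 to 0.25.

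Deviations of same-numbered libraries from their group means were weakly correlated (0.0096 to 0.107 in adult and -0.029 to 0.042 in hindgut libraries). In groups of 2 the deviations mirror each other, so these values cannot show whether the numbers pair libraries. With the replicate block the called genes were 47, 4353 and 4084 in regenerating against WT, KO against WT and KO against regenerating, and 8429, 4012 and 5696 for E16 against E11, E14 against E12 and E16 against E14, with 1, 7, 5, 8, 2 and 6 members, and Cxcl10 in KO against WT was at 5.48. On day 8, thinning each cell to 2000 UMIs lowered the shares of cells with a UMI to between 0.24% for Cxcl9 and 7.72% for Ccl28, so the shares depend on depth. Leaving out the 16 leukocyte-marked cells, an alternative chosen after seeing the data, moved no share beyond its counting interval. As 16 of 3356 cells are too few to move a share that far, nothing follows from this. Groups of 2 limit every bulk comparison.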
